A study of Danio rerio with 25 samples.

Results

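Zebrafish embryos exposed to citalopram at 50 μg/L were compared with control embryos, both harvested whole at 48 h post-fertilization (hpf), over every transcript that the authors' table for this pair of groups lists. The table lists 31103 transcripts, out of 32963 listed for at least 1 of the 4 concentrations of the study. Of these, 31033 had reads in both groups, 43 had a mean of 0 in control and 27 had a mean of 0 at 50 μg/L. The 2 kinds are described apart, because a ratio against a mean of 0 has no finite value.

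The study held 25 libraries of total RNA, each from 50 pooled embryos, with 5 libraries in control and 5 at each citalopram concentration, the lowest being 0.03 μg/L, followed by 0.9 μg/L, 50 μg/L and 250 μg/L. The 10 libraries used here were 5 from wild-type (WT) embryos kept in 50 μg/L citalopram hydrobromide and 5 from WT embryos kept in the same embryo medium (0.3x Danieau) without the drug. The labels give an exposure from 0 to 24 hpf, after which the drug was washed out, and the methods of the paper give a later start, a conflict that the sources used here do not settle. Treated embryos therefore developed from 24 to 48 hpf without the drug, and a library reports the average of 50 embryos of whatever stage, sex and tissue make-up they had. The labels carry 1 batch date for all libraries.

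Citalopram is a selective serotonin reuptake inhibitor. It blocks the transporter that takes serotonin back into neurons, and so lengthens the action of serotonin outside the cell. In zebrafish embryos the serotonergic neurons of the hindbrain and spinal cord differentiate within the period studied. A whole embryo at 48 hpf is a mixture of muscle, nervous system, epidermis, blood, lens and yolk-associated tissue, so a transcript used by few cells can shift in those cells with little effect on the total. Fewer cells of a type and less RNA per cell cannot be told apart in such libraries.

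The table names transcripts by Ensembl transcript ID, and 0 of these IDs were matched to a gene symbol with the annotation used here. Gene lists for serotonin signalling, neurons, muscle and metabolism, and the marker genes of the embryo's tissues, were therefore not read. Transcripts are described by their levels, and 4 are printed by ID.

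The values are group means of normalized counts, that is, read counts divided by a scaling factor for each library (its size factor) and averaged over 5 libraries. They summed to 28906954 at 50 μg/L, against 28189027 in control, with medians of 174 (50 μg/L) and 172 (control). The means are printed to 15 digits, and each is a sum of whole read counts times the fixed worth of 1 read in each library. This made it possible to recover the 5 single library counts behind a mean wherever both group means were below 300. It succeeded for 19293 transcripts, 62.0% of those listed, with 1899034 to 2077812 recovered reads per citalopram library and 1521051 to 2591604 per control library. Size factors were 1.09, 1.06, 1.04, 1.02 and 0.982 in the citalopram libraries, against 1.36, 0.962, 0.941, 0.917 and 0.794 in the control libraries. The counts found for the control libraries gave the control means of the other 3 tables as well for 19480 of the 19491 transcripts that could be checked there (99.94%), and the 11 that did not were left out. The citalopram counts appear in 1 table only and could not be checked in this way. Recovered libraries are numbered here from the largest size factor to the smallest, and these numbers are not the replicate numbers of the labels.

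Group means at 50 μg/L lay close to those of control. The median log2 ratio of the 31033 transcripts present in both groups was 0.016, with quartiles of -0.13 and 0.15, so that the middle of the distribution was narrow and centred near equality. In all, 94.6% of transcripts differed by at most 0.6 on the log2 scale, the fold the study used, and 98.2% by at most 1. The log2 ratio was above 0.6 for 823 transcripts (2.65%) and below -0.6 for 843 (2.72%). Past 4-fold, a log2 ratio of 2, there were 73 transcripts higher and 59 lower. The extremes were 4.94 and -5.45. A ratio of 2 means carries no test by itself.

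The most abundant transcripts were nearly the same in both groups. The first held 9.56% of the sum of means at 50 μg/L and 9.36% in control, and was the same transcript, with a mean of 2764934 at 50 μg/L against 2638759 in control. The first 10 held 23.0% at 50 μg/L and 22.9% in control, and the first 100 held 38.3% in each group. Of the first 100 of each group, 97 were shared. The 100 most abundant transcripts of control had log2 ratios from -0.44 to 0.41 with a median of 0.042, and 0 of them passed 0.6.

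The size of the ratios depended on the level. Among 6532 transcripts with a mean over both groups of 10 to 50 normalized counts, 502 were higher and 558 lower by more than 0.6, or 16.2% in all. Among 10025 transcripts of 50 to 200 there were 230 higher and 238 lower (4.67%). Among 10145 of 200 to 1000 there were 68 higher and 33 lower (0.996%), and among 4278 from 1000 upward 13 higher and 1 lower (0.327%). Only 53 transcripts had a mean below 10. The median absolute log2 ratio was 0.25, 0.16, 0.11 and 0.087 in the 4 ranges from 10 upward, smaller at each higher level. Counting error alone would give medians of 0.11, 0.061, 0.031 and 0.014 at these levels. The observed medians were thus 2.26 to 6.06 times as large as those of counting error, with the highest multiple in the most abundant range.

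**Figure D1:**
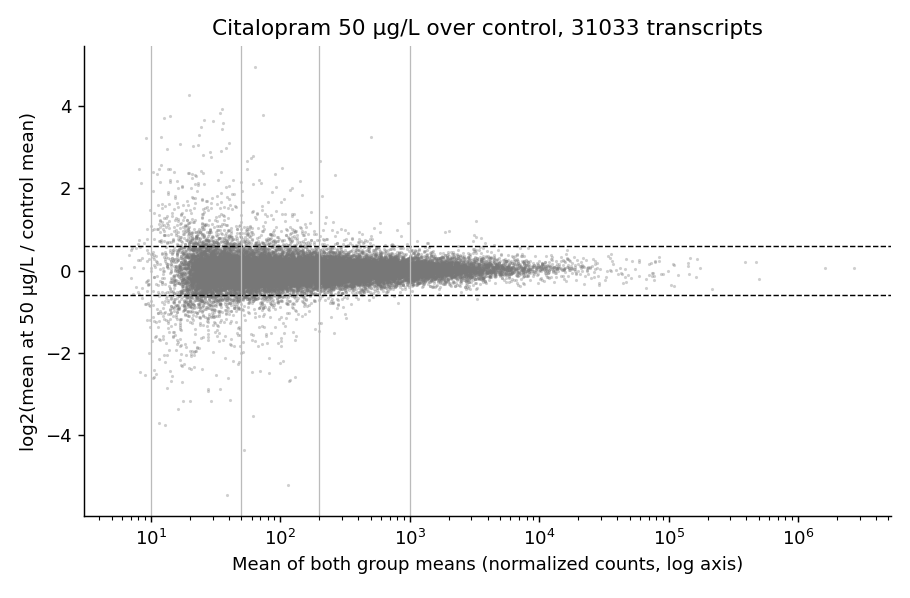
Each point is 1 of the 31033 transcripts with reads in both groups. The horizontal axis is the mean of both group means in normalized counts on a log scale, and the vertical axis is the log2 ratio of the mean at 50 μg/L to the control mean. Dashed lines mark 0.6 and -0.6, grey lines the level ranges of the text (10, 50, 200 and 1000). The cloud narrows to the right, with 16.2% of transcripts past the dashed lines at 10 to 50 normalized counts and 0.327% from 1000.

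In the abundant range, more transcripts were higher than lower. From 1000 normalized counts upward, the 13 higher transcripts had log2 ratios from 0.61 to 1.2. The first of them had a mean of 4555 at 50 μg/L against 1976 in control, the second 2675 against 1364 and the third 2448 against 1280. The single lower one had a mean of 2546 at 50 μg/L against 4132 in control. When the means were expressed as shares of their group's total, the counts were 11 higher and 2 lower, and in the range from 200 to 1000 they were 52 higher and 42 lower in place of 68 and 33. These means were too large for the library counts to be recovered, and the authors' standard errors were not used, so the spread behind them is not given. The same 13 transcripts had a median log2 ratio to control of 0.26, 0.073, 0.71 and 0.27 from the lowest concentration to the highest. They were chosen by their value at 50 μg/L, and all 4 values share the same control libraries.

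The recovered libraries did not fall apart by treatment. On log2(normalized count + 1) over the 19293 transcripts, the Spearman correlation ran from 0.716 to 0.839 (median 0.803) between pairs of citalopram libraries and from 0.757 to 0.858 (median 0.827) between pairs of control libraries. Between a citalopram and a control library it ran from 0.728 to 0.892 with a median of 0.822. These values are across transcripts, which are not independent replicates, and are given as a description. For 8 of the 10 libraries the closest library belonged to the other group, which also holds the larger number of candidates. The closest pairs were citalopram library 5 with control library 5 (0.892), citalopram library 3 with control library 3 (0.873), citalopram library 2 with control library 1 (0.866) and citalopram library 4 with control library 4 (0.863).

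The first principal component held 25.1% of the variance and the second 11.4%. First component scores were between -94.1 and 102 for citalopram libraries and between -84.7 and 95.7 for control libraries (exact 2-sided permutation test of the means, 5 libraries against 5, p = 0.897). Second component scores were between -35 and 119 for citalopram libraries and between -51.8 and 5.61 for control libraries, and the exact permutation test gave p = 0.325. The smallest p that 5 libraries against 5 allow is 0.00794. Citalopram library 1 lay at 119 on the second component, away from the other 9 libraries.

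**Figure D2:**
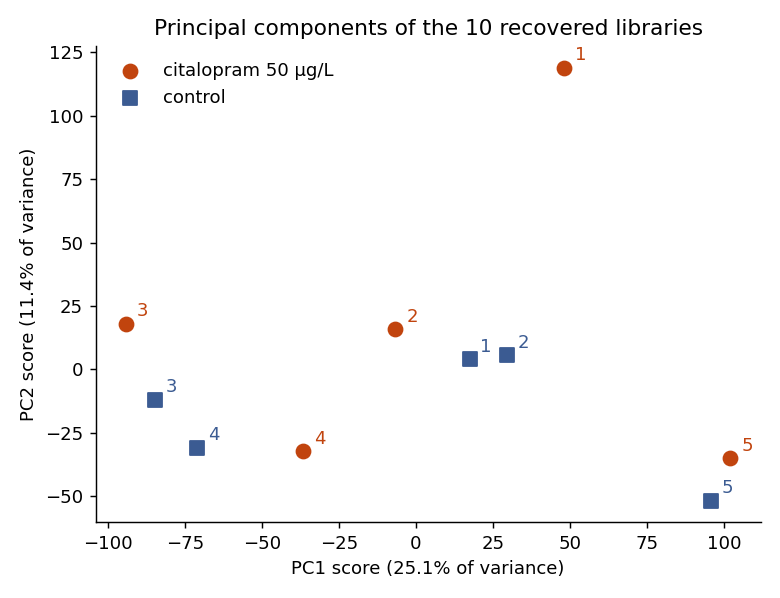
Scores of the 10 recovered libraries on the first (horizontal, 25.1% of variance) and second (vertical, 11.4%) principal component of log2(normalized count + 1) over 19293 transcripts. Circles are the 5 citalopram 50 μg/L libraries and squares the 5 control libraries, each numbered by its size factor from the largest. Both groups span the first component, and citalopram library 1 stands alone at the top.

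The spread between libraries was of similar size in both groups. The median SD of a transcript on the log2 scale was 0.438 among citalopram libraries and 0.379 among control libraries (n = 5 each), and the SD was larger among citalopram libraries for 59.7% of transcripts. Transcripts share their libraries, so this share has no test. Transcripts with no reads numbered 611 to 939 per citalopram library and 628 to 1027 per control library (exact permutation test of the group means, p = 0.992).

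Many transcripts had reads assigned to them in some libraries of a group and none in others. At 50 μg/L, 1845 of the 19293 transcripts (9.56%) had a library at 0 and another at 20 normalized counts or more, and in control 1790 did (9.28%). Both groups showed this for 1282 transcripts, which are 69.5% of those of the citalopram group and 71.6% of those of the control group. The group mean of such a transcript depends on how many of the 5 libraries carry it. The level of 20 added little to this rule, because every recovered transcript had a second highest count of 24 reads or more. Of the 2362 transcripts with a library at 0, 2353 met the rule in either group. The pattern thus says little beyond a library being at 0.

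Most of the recovered transcripts with large ratios showed this pattern. Among recovered transcripts with reads in both groups, 545 differed by more than 2-fold between the means, and 471 of these (86.4%) had a library at 0 and another at 20 or more in the same group. Among transcripts within a log2 ratio of 0.6 it was 7.78%. In 39.6% of the transcripts past 2-fold, 1 library held over 50% of the reads of the higher group, against 2.56% of those within 0.6. The sets compared were not matched for level, and large ratios were more frequent at low levels. The groups did not overlap, with all 5 libraries of one beyond all 5 of the other, for 16 of the 545. Over all 19293 transcripts, groups did not overlap for 33 higher at 50 μg/L (0.171%) and 67 lower (0.347%).

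**Figure D3:**
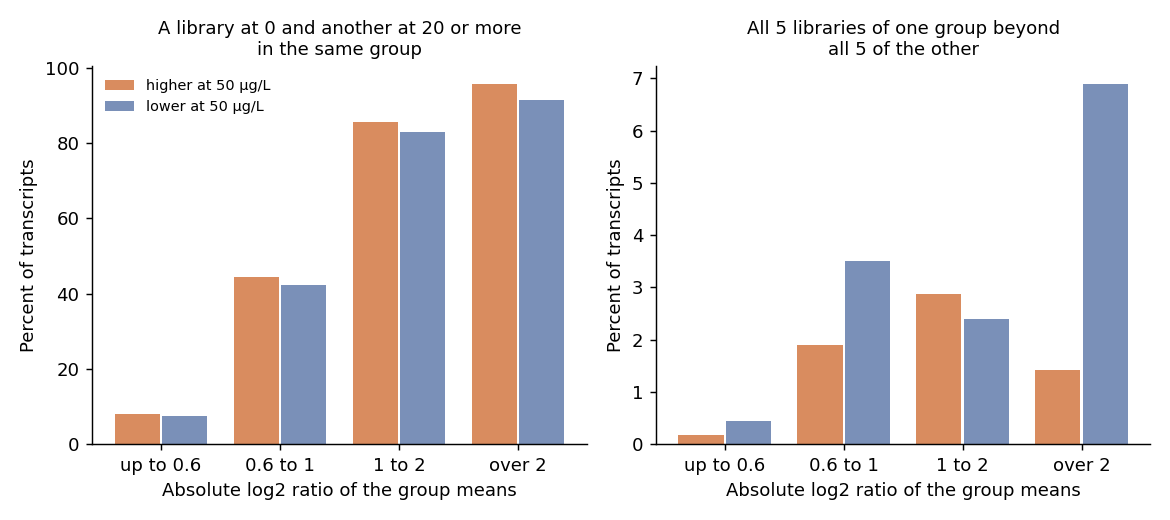
Percent of recovered transcripts with reads in both groups, by the absolute log2 ratio of their group means, for transcripts higher (left bars) and lower (right bars) at 50 μg/L. The left panel counts transcripts with a library at 0 and another at 20 normalized counts or more in the same group. They go up from 8.13% and 7.43% at ratios up to 0.6 to 95.7% and 91.4% at ratios over 2. Nearly every recovered transcript with a library at 0 meets this rule. The right panel counts transcripts whose 2 groups of 5 libraries did not overlap, at most 6.9% in any range.

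The transcripts printed by ID had the highest and lowest ratios among 23772 transcripts with both means of at least 50 that all 4 tables list. ENSDART00000031650.8 had a mean of 908.2 at 50 μg/L against 94.9 in control, a log2 ratio of 3.26. Its 5 control libraries held 239, 124, 46.6, 35.3 and 29.4 normalized counts, so the untreated libraries themselves were far apart. In the other 3 tables, each on its own scale, its mean was 118 (0.03 μg/L), 78.1 (0.9 μg/L) and 85.2 (250 μg/L), all far below the mean at 50 μg/L. The citalopram libraries at 50 μg/L could not be resolved at that level, and whether 1 or all of them were high is not known.

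ENSDART00000166798.2 had a mean of 352.7 at 50 μg/L against 55.1 in control, a log2 ratio of 2.68. Control libraries held 170, 55.3, 24.0, 15.6 and 11.3 normalized counts, with 1 library far above the others. Its means at the other concentrations, 23.5 (0.03 μg/L), 26.9 (0.9 μg/L) and 62.4 (250 μg/L), were near or below that of control.

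ENSDART00000191546.1 was the lowest, with 208, 77.7, 23.4, 0 and 0 normalized counts in the citalopram libraries against 430, 230, 171, 166 and 0 in the control libraries. The means were 61.8 ± 87.7 at 50 μg/L and 199 ± 155 in control (SD, n = 5 each), and the log2 ratio was -1.69. The groups overlapped, with a library at 0 in each. The difference on the log2(normalized count + 1) scale was -2.56 ± 1.9 (SE) and did not pass the test (limma, adjusted p = 1). ENSDART00000147874.3 had 183 and 144 normalized counts in 2 citalopram libraries and 0 in the other 3, against 870, 66.8 and 52 in 3 control libraries and 0 in the other 2. Its log2 ratio of -1.59 rested on the control library at 870, and limma gave an adjusted p of 1.

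None of the recovered transcripts passed limma's test against the spread between libraries. With limma on log2(normalized count + 1) over the 19293 recovered transcripts, 0 (0%) reached an adjusted p of 0.05 or less (Benjamini-Hochberg), and the smallest adjusted p was 0.456. At an unadjusted p below 0.05 there were 197 transcripts higher at 50 μg/L (1.02%) and 351 lower (1.82%). Both shares together stay below the share of 0.05 that the threshold allows without any difference, so they are not read as changes. Nor do they show an absence of change, because whether the p-values run too large on these libraries was not tested. Weighting the recovered reads with limma's voom function also gave 0 at the adjusted threshold, with 194 higher and 353 lower unadjusted. Transcripts with a group mean of 300 or more, including most abundant ones, were outside this test.

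Of the 5 higher and 5 lower transcripts with the smallest p, 7 were at 0 in some library and 3 had reads in all 10. They are shown because they came nearest to the threshold, and are named by rank only. The transcript with the smallest p held 53.9, 34.6, 28.5, 27 and 24.6 normalized counts in the citalopram libraries and 0 in all 5 control libraries. Its difference was 5.06 ± 0.73 (SE) on the log2(normalized count + 1) scale (limma, adjusted p = 0.456). A floor of 3 counts over the control group put it at least 56.2-fold higher at 50 μg/L. It also had reads in 5 of 5 libraries of the 0.03 μg/L group (mean 29.4), 4 of 5 of the 0.9 μg/L group (mean 21.8) and 4 of 5 of the 250 μg/L group (mean 25.3). It was thus present in 18 of 20 citalopram libraries over all concentrations and in 0 of 5 control libraries, a count given as a description because the transcript was picked by its values.

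The second higher transcript had reads in all 10 libraries, with 318, 203, 141, 130 and 85.7 normalized counts in the citalopram libraries against 57.5, 52.1, 18.9, 16.6 and 9.81 in the control libraries. The means were 175 ± 90.1 at 50 μg/L and 31 ± 22.1 in control (SD, n = 5 each), or 5.66-fold, and the groups did not overlap. Limma gave a difference of 2.62 ± 0.5 (SE) with an adjusted p of 1. More than 1 set of whole counts was compatible with 1 of its means, and the set with the least spread is given. The library counts, their SDs, the lack of overlap and the limma result hold for that set only. Its mean was 36.3 (0.03 μg/L), 19.7 (0.9 μg/L) and 35.5 (250 μg/L) in the other citalopram groups, near that of control.

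The fourth higher transcript had the smallest SE in limma of the 5, at 0.34 on the log2 scale. It held 70.3, 69.8, 67.2, 49.9 and 36.6 normalized counts in the citalopram libraries against 33.2, 23.4, 19.6, 15.1 and 10.4 in the control libraries, 58.8 ± 15 against 20.3 ± 8.67 (SD, n = 5 each). The groups did not overlap and the means differed 2.89-fold, but the adjusted p in limma was 1. In the other citalopram groups its mean was 49.0 (0.03 μg/L), 26.4 (0.9 μg/L) and 46.6 (250 μg/L), above the control mean in each. All concentrations share the control libraries by which the transcript was picked, so this is not read as agreement between concentrations.

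On the lower side, the transcript with the smallest p had 24.1 normalized counts in 1 citalopram library and 0 in the other 4, against 135, 123, 105, 90.4 and 43.6 in the control libraries. The groups did not overlap, and the means of 4.82 ± 10.8 at 50 μg/L and 99.3 ± 35.5 in control (SD, n = 5 each) differed 20.6-fold. Limma gave a difference of -5.62 ± 0.9 (SE) with an adjusted p of 0.569. It had reads in 4 of 5 libraries of the 0.03 μg/L group, 5 of 5 of the 0.9 μg/L group and 3 of 5 of the 250 μg/L group, against 1 of 5 at 50 μg/L.

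The second lower transcript had 162 normalized counts in 1 citalopram library and 0 in the other 4, against 278, 267, 226, 182 and 71.5 in the control libraries. More than 1 set of whole counts was compatible with its control mean, and the set with the least spread is given. The citalopram library at 162 lay inside the control range of that set, and the adjusted p in limma was 1. At 0.9 μg/L it was at 0 in all 5 libraries, and at 0.03 and 250 μg/L its means were 288 and 284. Its mean thus did not follow the concentration, and the number of libraries that lacked it at 0.03 and 250 μg/L is not known.

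The fifth lower transcript was expressed in every library, with 87.5, 66.3, 61.1, 58.8 and 34.7 normalized counts at 50 μg/L against 123, 122, 115, 111 and 97 in control. The groups did not overlap, and the means of 61.7 ± 18.8 at 50 μg/L and 114 ± 10.6 in control (SD, n = 5 each) differed 1.84-fold. Limma gave a difference of -0.93 ± 0.22 (SE) with an adjusted p of 1.

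**Figure D4:**
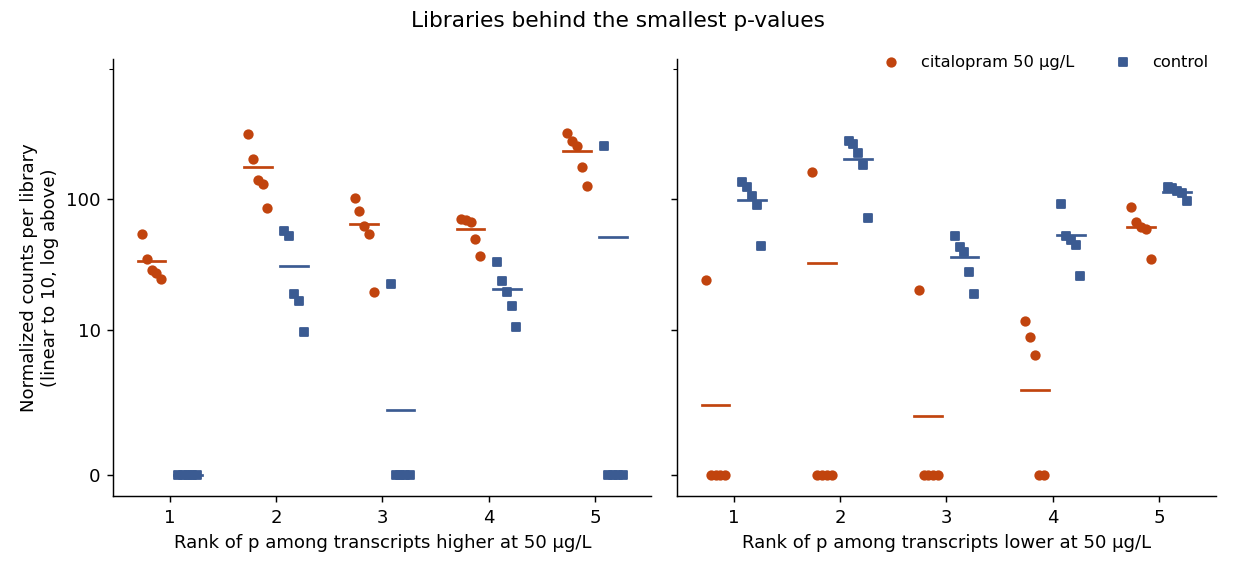
Normalized counts of single libraries for the 5 higher (left panel) and the 5 lower (right panel) transcripts with the smallest p in limma, ranked on the horizontal axis. The vertical axis is linear to 10 and logarithmic above. Circles are the 5 citalopram 50 μg/L libraries, squares beside them the 5 control libraries, and short lines the group means. Of the 10 transcripts, 7 have libraries at 0, such as the first higher one at 24.6 to 53.9 at 50 μg/L and 0 in all control libraries, and the adjusted p is 0.456 or more throughout.

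Listed transcripts with a mean of 0 in one group were few and were rarely carried by all libraries of the other. The 43 transcripts at 0 in all control libraries had means at 50 μg/L from 12.9 to 944.3 with a median of 27.2. Of these, 27 had reads in 2 of the 5 citalopram libraries, 14 in 3, 1 in 4 and 1 in all 5. With a floor of 3 counts over the control group, the smallest was at least 21.6-fold higher at 50 μg/L, and the largest at least 1574-fold. Every recovered transcript had a second highest count of 24 reads or more, so much lower bounds could not arise. The smallest bound is therefore not read as a result. The largest, with a mean of 944.3, held 3770 normalized counts in 1 library and 951.6 in another, and 0 in the other 3. This is the only combination of up to 3 libraries that gives the printed mean. The transcript in 4 libraries held 151, 144, 135 and 52.1 normalized counts and 0 in the fifth. Neither transcript was listed at another concentration.

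Of the 43, the table for 0.03 μg/L lists 23, that for 0.9 μg/L 14 and that for 250 μg/L 15, always above 0, and none of the 3 lists 15. With the shared control at 0, a listed transcript can have its reads only in the citalopram group, so this is not read as agreement between concentrations. In limma, 4 of the 42 that could be tested had an unadjusted p below 0.05, against 1.02% higher over all transcripts tested. The one present in all 5 libraries had the smallest adjusted p (0.456), and it was the only one of the 42 whose groups did not overlap, against 0.171% over all. A transcript at 0 in all control libraries has to be higher at 50 μg/L, so these shares are not read further.

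The 27 transcripts at 0 in all citalopram libraries had control means from 12.5 to 101.8 with a median of 26. Of these, 19 had reads in 2 of the 5 control libraries and 8 in 3, and none in more. The first of them held 280 and 229 normalized counts in 2 control libraries. With a floor of 3 counts over the citalopram group, values at 50 μg/L were at least 20.9-fold lower for the smallest and at least 169.6-fold lower for the largest. The smallest bound is again limited by which transcripts are listed. All 27 were listed at the other 3 concentrations, with a mean of 0 for 7 (0.03 μg/L), 10 (0.9 μg/L) and 6 (250 μg/L) of them, and 2 were at 0 at every concentration. The control libraries that carry them are shared by all comparisons, so being listed at every concentration is not read as a result. A mean above 0 at all 3 other concentrations was seen for 13. In limma the smallest adjusted p of the 27 was 1, with 1 at an unadjusted p below 0.05, against 1.82% lower over all transcripts tested. Floors and folds from them cover counting error only.

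**Figure D5:**
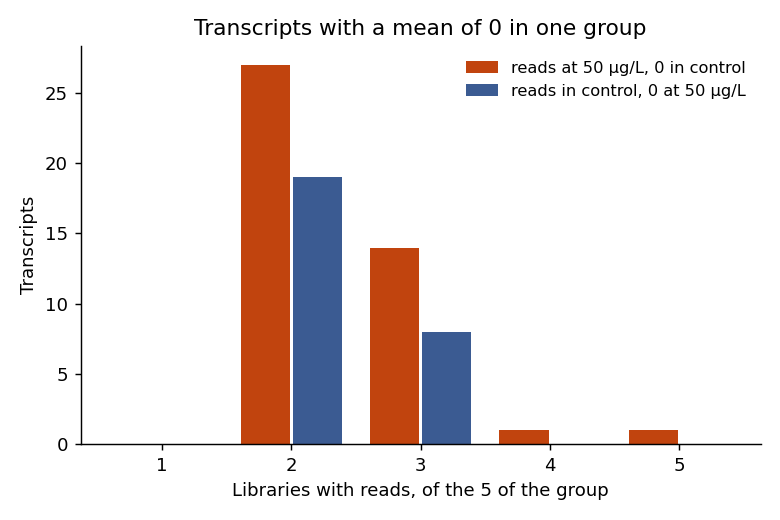
Number of libraries with reads, of the 5 of a group (horizontal axis), for transcripts with a mean of 0 in the other group, with the number of transcripts on the vertical axis. Left bars are the 43 transcripts with reads at 50 μg/L and none in control, right bars the 27 with reads in control and none at 50 μg/L. Only 1 transcript, a left bar, had reads in all 5 libraries of its group.

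No recovered transcript was carried by a single library alone. Every recovered transcript had reads in at least 2 of the 10 libraries, and its second highest count was 24 reads or more. The rule by which the authors chose the listed transcripts is not stated in the sources used here. A lower limit in such a rule would fix this outcome in advance, so it is not read as a result.

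The distance of 50 μg/L from control was set beside its distance from the other citalopram groups, with which it shares no library. Over the 30133 transcripts above 0 in every group of all 4 tables, 619 were higher and 752 lower by more than 0.6 at 50 μg/L than in control (4.55%), with a median absolute log2 ratio of 0.14. Between 50 and 0.9 μg/L, 609 were higher and 636 lower at 50 μg/L (4.13%), with a median of 0.12. Between 250 and 50 μg/L, 714 were higher and 487 lower at 250 μg/L (3.99%), with a median of 0.11. Between 50 and 0.03 μg/L, 1589 were higher and 2616 lower at 50 μg/L (14%), with a median of 0.24. The 0.03 μg/L group lay farthest from 50 μg/L, and it also lay far from 0.9 μg/L (13.3% past 0.6) and from 250 μg/L (10.1%), while 250 and 0.9 μg/L were 4.01% apart. These counts have no test.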

How the data were processed

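Total RNA of whole WT zebrafish embryos (50 pooled per library) was sequenced at 48 hpf after exposure to citalopram at 50 μg/L or none, with 5 libraries per group. The authors used Trimmomatic for trimming and Salmon for quantification (coding and non-coding RNA, GRCz11), both named in the submitters' processing notes, and the paper names DESeq2 within Trinity for the comparison. The deposited signal is the mean normalized count of each group, never negative. The deposited tables also hold the authors' log2 fold changes, standard errors, Wald statistics and p-values, which were not used. Samples were grouped by their labels. One treatment text of the labels names opioids. The titles, treatment tags and paper all name citalopram, and this was followed.

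No values of single libraries were used as deposited, and no test had been planned for that reason. Means are printed to 15 digits. Transcripts carried by 1 library of a group give means that are whole multiples of 1 step, 5 steps per group. With these steps, whole counts were found by lattice reduction for means below 300, within 1.5 units of rounding error in the last printed digit. Of 19293 transcripts, 17859 had a single solution for both means, and otherwise the solution with the least spread was taken. The recovery was tested on simulated data. Recovered libraries carry no replicate number. The 5 samples of a group are biological replicates according to the paper, with no statement of separate clutches in the sources used here.

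Recovered values were tested with limma 3.58.1 (R 4.3.3) on log2(normalized count + 1), with a variance trend and Benjamini-Hochberg adjustment over 19293 transcripts. Adding 1 shrinks the differences between low counts. Where some libraries are at 0, the difference can instead exceed the log2 ratio of the means. This was so for ENSDART00000191546.1 (-2.56 against -1.69) and not for ENSDART00000147874.3 (-1.37 against -1.59). Principal components, SDs and exact 2-sided permutation tests used Python 3.11.15, numpy 2.4.6, scipy 1.17.1 and pandas 2.3.3, and figures matplotlib 3.10.9. The test was checked on simulated data, where it missed most of the 2-fold changes put in and part of the 4-fold ones. Transcripts without a call are therefore not shown to be unchanged. Counting error of a ratio was taken from both means times 5 libraries. It leaves out the error of assigning reads to transcripts. A fold against a mean of 0 is a lower bound from 3 counts over the 5 libraries.

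The rule for printed IDs took the 2 highest and 2 lowest ratios among transcripts with both means of at least 50 and listed in all 4 tables. The comparison, the lists and the rule were chosen with earlier results of these data known. The recovery, the limma test, the value of 20 that counts as present, the grouping of ratios and the transcripts given by rank of p or level were chosen after seeing the data. No table paired the IDs with symbols, so no gene list, marker or sequence was used. Alternatives were another fold, pseudocount, filter, scaling or set of transcripts, and leaving out each recovered library.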

Additional observations from a re-analysis of the deposited data

Results flagged for a closer look

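In 9 of 48 sets of 5 libraries (library measures, the printed transcripts and those with the smallest p, each within 1 group), the highest or lowest library lay apart from the other 4, with a gap above 0.71 of the range. Chance alone gives about 1 in 20 for values from a normal distribution. Normalized counts with libraries at 0 do not follow one, so the share to be met by chance here is not known. The transcripts were picked for extreme ratios or small p, and 7 of the 10 ranked by p have libraries at 0, so the sets do not stand for transcripts at large. None of the 12 sets of library measures was among the 9.

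ENSDART00000147874.3 had a control library at 870 normalized counts and ENSDART00000166798.2 one at 170. Among higher transcripts, rank 3 by p had 1 control library at 22.3 and rank 5 had 1 at 256, with the other 4 at 0 in both cases. Among lower transcripts, ranks 1, 2 and 3 by p each had 1 citalopram library with reads, at 24.1, 162 and 20.2 normalized counts, and 4 at 0. Of the lower transcripts with reads in all 10 libraries, that of rank 2 by p had 1 high control library at 157, and that of rank 3 had 1 low control library at 99.5.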

How the results depend on the processing

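No paired analysis was possible because the recovered libraries carry no replicate number. With the fold threshold at a log2 ratio of 1 in place of 0.6, 291 transcripts were higher and 275 lower at 50 μg/L. Restricting the table to transcripts listed in all 4 tables left 7 of the 43 at 0 in control. A pseudocount of 1, a larger mean of at least 10, centring on the median, or shares of the total kept the numbers past 0.6 within 1.5 times, with 743 higher and 970 lower as shares of the total, where the median log2 ratio was -0.021.

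Alternatives to the limma test were chosen after seeing the data. A pseudocount of 0.5 or 5, means below 100, transcripts with reads in all 10 libraries, transcripts with a single solution, voom weights and scaling to recovered reads each gave 0 transcripts at an adjusted p of 0.05. Their smallest adjusted p was between 0.285 and 1. With means below 100, fewer transcripts were tested and 109 were higher and 178 lower at an unadjusted p below 0.05. Leaving out 1 library gave 0 to 2 transcripts higher and 0 to 2 lower at the adjusted threshold (limma), and 145 to 271 higher and 215 to 657 lower unadjusted. The lowest unadjusted number lower came without citalopram library 1 and the highest without citalopram library 4 (529 without citalopram library 3 and 218 without control library 2). The cause was not tested.

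Calls appeared in 4 of the 10 fits that leave out 1 library, each for a transcript whose states divided the groups once that library was gone. Without citalopram library 3, the first 2 lower transcripts by p had adjusted p of 0.00111 and 0.000266. For the second of these, more than 1 set of control counts was compatible with the mean. Without control library 2, the fifth higher transcript had 3.01e-05, and without control library 3 the third had 0.0357 and another 0.00367. Without citalopram library 2, the transcript present in the other 4 citalopram libraries and in no control library had 0.0191. These sets of 4 are set by the value of the library left out, so the p-values are no support for a change.

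Depth limits low transcripts most. Transcripts with a mean of 300 or more had no library values and were not tested, except that the counts behind the mean of 944.3 were found and not tested.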

Other observations

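Libraries of all 5 groups were recovered in the same way, for 14267 transcripts with counts in every group. For 23 of the 25 libraries the closest library by Spearman correlation belonged to another group, where most of the candidates are. This count was not tested. The correlation had a median of 0.719 over the 50 pairs within groups and 0.734 over the 250 pairs between groups, and ran from 0.5 to 0.866 within and from 0.365 to 0.863 between. The citalopram counts were not checked in a second table, and the values are a description over transcripts.

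Of the 5 libraries at 50 μg/L, 4 and the control library closest to each were each other's closest. The same held for 3 libraries against 0.03 μg/L, 2 against 0.9 μg/L and 3 against 250 μg/L. Citalopram 50 μg/L library 5 was closest to control library 5 (correlation 0.85), to library 4 at 250 μg/L (0.861) and to library 4 at 0.03 μg/L (0.801), each of which was closest to it in turn. Citalopram 50 μg/L library 4 was paired in this way with a library of all 4 other groups, at 0.788 to 0.861. Citalopram 50 μg/L library 1, which lay apart on the second principal component, had no such partner in any group. Some such pairs arise between any 2 groups by chance, and how many was not worked out. Whether the libraries of such a set have anything in common was not tested, and no fit was made on pairs read from the data.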
